A study of Homo sapiens with 12 samples.

Results

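Small nucleolar RNA (snoRNA) host genes are transcribed as long RNAs whose introns are processed into snoRNAs, the short RNAs that guide 2′-O-methylation (box C/D) or pseudouridylation (box H/ACA) of ribosomal RNA. The long non-coding hosts have 32 listed members among the 60666 genes of the Huh7 expression table: every gene named SNHG followed by a number, and GAS5, ZFAS1, EPB41L4A-AS1 and DANCR. Of these, 27 reached at least 1 TPM (transcript abundance scaled to a fixed total per library) in at least 3 libraries and were tested together with the other genes that passed this filter, 14394 in all.

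The study examined FAM111B, a trypsin-like protease, in hepatocellular carcinoma. Huh7, an established human hepatocellular carcinoma line, was transduced with lentivirus carrying either a control sequence (NC) or a short hairpin RNA against FAM111B (KD, or shFAM111B cells), and infected cells were selected with puromycin. RNA was sequenced from 3 NC and 3 KD libraries of such stably transduced cells. The Hep3B libraries of the series were not analysed here.

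As background, most of the spliced exonic RNA left after snoRNA excision has no long open reading frame, and for several hosts it is removed in the cytoplasm by nonsense-mediated decay (NMD) when it is translated. Many hosts start with a 5′ terminal oligopyrimidine (TOP) tract, the element that ties the translation of ribosomal protein mRNAs to growth signals. GAS5 was named for its accumulation in growth-arrested cells, which is the classical account of such RNAs rising when translation slows.

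FAM111B itself was at 7.84, 8.29 and 7.99 TPM in the control libraries and at 0.96, 1.13 and 0.84 TPM in the shFAM111B libraries. The groups did not overlap, and the log2 fold change was -2.20 (SE 0.11, adjusted p = 6.09e-06, limma with Benjamini-Hochberg adjustment over all tested genes). All 8 hepatocyte markers examined were present, between 38.5 and 25038 TPM. Of 9 markers of other cell types, 6 were under 1 TPM in every library, and the summed level of the 9, most of it LYZ, ran from 264.5 to 268.8 TPM in control and from 290.9 to 320.7 TPM in shFAM111B libraries. TPM hold no read depth, so the depth behind each value is unknown. Nothing in the labels says that the libraries came from separate cultures, so p-values measure only the spread between these libraries, and bulk RNA cannot tell fewer cells that express a gene from less RNA per cell.

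The hosts went in opposite directions. SNHG25, SNHG19 and ZFAS1 were at least 2-fold higher in shFAM111B cells, whereas SNHG22, SNHG3 and SNHG4 were at least 2-fold lower. DANCR, SNHG5, SNHG6, SNHG7, SNHG8, SNHG9 and SNHG21 rose by less than 2-fold, the abundant SNHG29 and GAS5 rose slightly, and SNHG1 and SNHG17 fell. By a rule of at least 2-fold and an unadjusted limma p under the threshold of 0.05, 3 of the 27 tested hosts (11.1%) were higher, against 6.82% of all tested genes, and 3 (11.1%) were lower, against 23.7% of all tested genes. Of the other tested long non-coding RNA genes, 17% were higher and 10.5% lower by this rule. At an adjusted p under 0.05 with any fold, 12 hosts were higher (44.4%, against 21.1% of all tested genes), 5 were lower (18.5%, against 50.9%) and 10 passed in neither direction. The shares of the other long non-coding RNA genes were 31.9% and 21.1%. Every shFAM111B library lay above every control library in 13 hosts (48.1%, against 22.5% of all tested genes) and below in 5 (18.5%, against 52.8%). SNHG25, at 0, 1.54 and 0 TPM in control, passed the filter only through its shFAM111B values. It is among the higher hosts in each of these counts. Without it, 2 of 26 hosts (7.69%) were higher by the 2-fold rule and 11 (42.3%) at adjusted p. In 12 of the 26 (46.2%) every shFAM111B library lay above every control library. The words rose and fell below refer to an adjusted p of limma under 0.05.

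The balance between the directions depended on how the libraries were scaled. In the deposited TPM the median log2 fold change of all tested genes was -0.36, and that of the hosts was 0.24. After median-of-ratios scaling, which sets the median of all tested genes to 0.03, the median of the hosts was 0.69, and 11 hosts were higher and 1 was lower by the 2-fold rule. The other 1604 tested long non-coding RNA genes had a median of 0.23 in the deposited TPM, next to that of the hosts, whereas the 12036 protein-coding genes had a median of -0.45. Mitochondrially encoded RNAs took 199635 ± 3029 TPM in control and 76315 ± 2858 TPM in shFAM111B libraries (SD, n = 3 each), and the rRNA class took 1056 to 2850 and 2567 to 53091 TPM. The contribution of these classes to the changes was not tested beyond rescaling without them, which left the median of the hosts at 0.11 and that of all tested genes at -0.48.

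**Figure D1:**
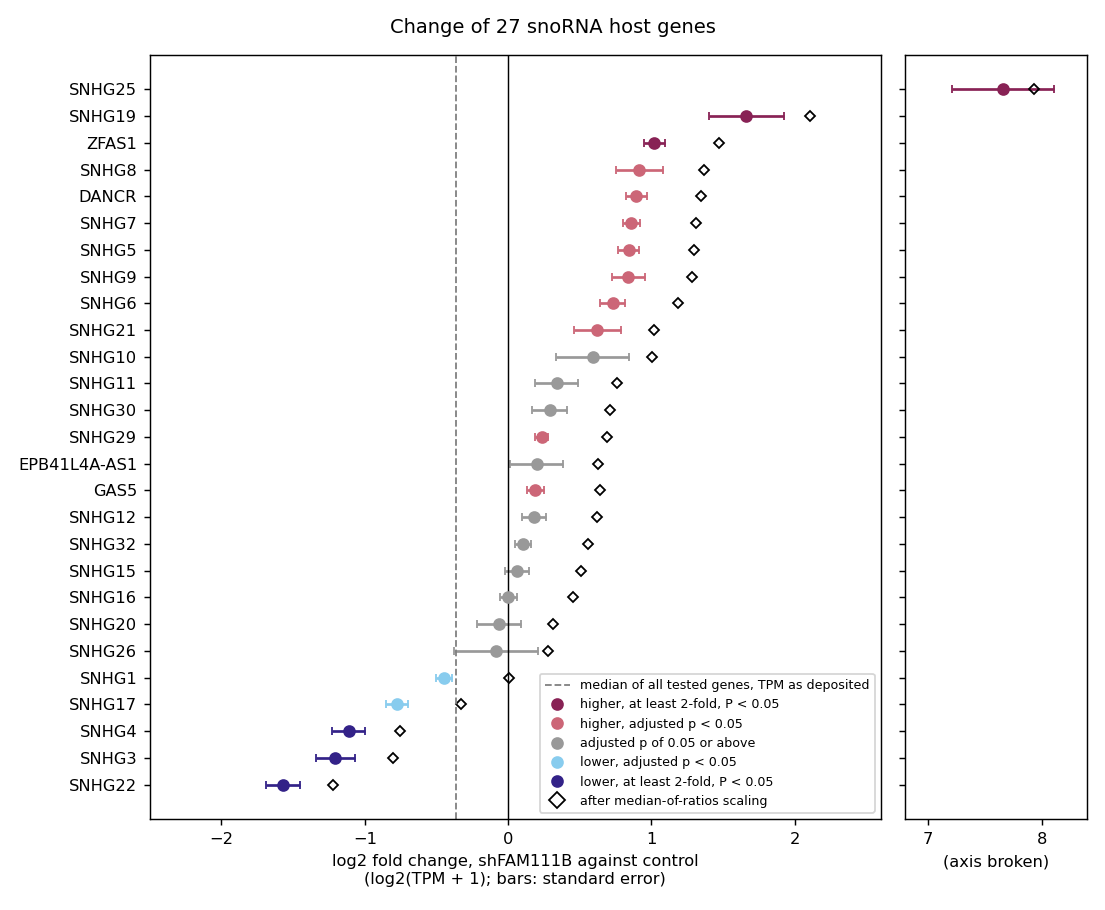
Log2 fold change (log2(TPM + 1), shFAM111B against control, 3 libraries each) of the 27 tested host genes as deposited (filled circles, bars are standard errors) and after median-of-ratios scaling (open diamonds). From SNHG25 at 7.66, beyond the break of the axis, the deposited values run down to -1.57 for SNHG22, and scaling moves every host to the right, with SNHG1 from -0.45 to just above 0.

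The first bases of the host RNAs are given because the TOP tract, a run of pyrimidines that begins with a C at the first transcribed base, is the sequence feature by which this class is known. Windows of 30 bases, from 10 before to 20 after the annotated start, were taken from RefSeq (GRCh38.p14) and written 5′ to 3′ on the transcribed strand, with the searched letters CTTTC or CTTTT in capitals:
ZFAS1 (chr20:49278632-49278661, + strand): gccattcgttCTTTCgcgtctgcggtgccc
SNHG5 (chr6:85678714-85678743, - strand): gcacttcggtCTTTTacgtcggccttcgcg
SNHG19 (chr16:2155339-2155368, - strand): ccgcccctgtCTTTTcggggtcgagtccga
SNHG32 (chr6:31834906-31834935, + strand): cattttagttCTTTTtgcgaagtgggctcg
SNHG12 (chr1:28581854-28581883, - strand): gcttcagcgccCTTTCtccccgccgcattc
SNHG1 (chr11:62855866-62855895, - strand): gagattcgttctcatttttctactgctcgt
SNHG3 (chr1:28505933-28505962, + strand): gtgagtttctgattctctaactgcgcatgc
SNHG25 had no entry in the promoter table, and its annotated transcript, printed with its values, begins with ctttc.

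In ZFAS1, SNHG5, SNHG19 and SNHG32 the match began exactly at the first transcribed base, and in SNHG12 at the second. Only some of the windows are printed. SNHG1 and SNHG3 had no match, nor did SNHG17 and SNHG22, which also fell. GAS5, DANCR, SNHG7 and SNHG21, which rose, had no match either. The lack of a match is not the lack of a pyrimidine start. SNHG7, SNHG1 and SNHG26 have a short run of pyrimidines, without the searched letters, from a C at the first transcribed base. The RefSeq start can differ from the GENCODE v29 start, and for GAS5 it lies upstream of it. Of the 23 tested hosts with a RefSeq entry, 9 (39.1%) held either set of letters on the transcribed strand, against 7.67% of all 35116 promoters. On the opposite strand 1 host (4.35%) did, against 5.44% of all promoters. Among hosts that rose, 5 of 9 with an entry had a match (SNHG19, ZFAS1, SNHG8, SNHG5 and SNHG29), against 1 of 5 among those that fell (SNHG4) and 3 of 9 of the others (SNHG12, SNHG32 and SNHG16). Of the hosts that rose, only SNHG19, ZFAS1 and SNHG5 had the match at the first transcribed base. The match began upstream of the start in SNHG8 (position -4) and SNHG29 (-9), and downstream in SNHG4 (position 3) and SNHG16 (6). In SNHG4, which fell, the match lies within a longer run of pyrimidines that begins with a C at the first transcribed base. These counts are a description of letters in a window around one annotated start per gene, and the difference between the directions was not tested.

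SNHG29, which hosts SNORD49A, SNORD49B and SNORD65, was the most abundant host in both groups. It was at 585, 572 and 554 TPM in control and at 661, 655 and 701 TPM in shFAM111B libraries, first of the hosts in all 6. It rose by 0.24 on the log2 scale (SE 0.04, adjusted p = 0.00251, limma), and under quantile normalisation its change was -0.18. Its share of the summed TPM of the hosts went the other way, from 22.5% to 17.4%.

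GAS5, DANCR and SNHG6 came next in control cells, with ranges that overlapped between neighbours. GAS5, in which the annotation used here places no snoRNA, was at 288, 282 and 268 TPM in control and at 327, 294 and 337 TPM in shFAM111B libraries. All shFAM111B libraries lay above all control libraries, but by little. The log2 fold change was 0.19 (SE 0.06, adjusted p = 0.0272, limma), it was -0.0029 under quantile normalisation, and the call was lost without control library 2 (adjusted p = 0.0628, limma), control library 3 (0.0887), shFAM111B library 1 (0.086) or shFAM111B library 3 (0.064).

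DANCR, the host of SNORA26, was first reported as a suppressor of differentiation. Its level was 261, 270.1 and 269 TPM in control and 476, 464 and 554 TPM in shFAM111B libraries. The lowest shFAM111B library was far above the highest control library, and the log2 fold change was 0.89 (SE 0.07, adjusted p = 3.26e-05, limma). SNHG6, the host of SNORD87, was at 276, 245 and 257 TPM in control and at 418, 391 and 486 TPM in shFAM111B libraries, a log2 fold change of 0.73 (SE 0.09, adjusted p = 0.000232, limma). In shFAM111B cells DANCR and SNHG6 stood next to SNHG29 by mean level, and both lay above GAS5 with no overlap.

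**Figure D2:**
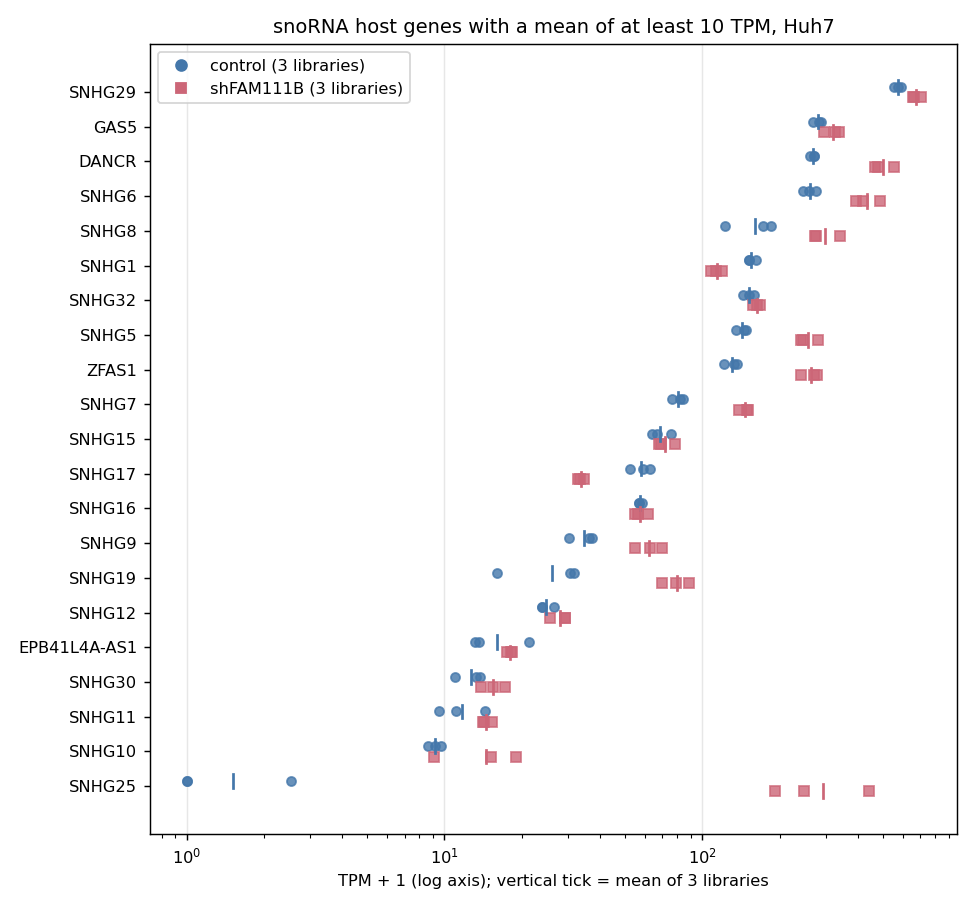
TPM plus 1 on a log axis for each library of the 21 tested host genes whose mean reached 10 TPM, ordered by the control mean (circles are control libraries, squares are shFAM111B libraries, ticks are means of 3). SNHG29 is highest in both groups at 554 to 701 TPM, and SNHG25, bottom row, sits at 0 to 1.54 TPM in control and at 189.9 to 442 TPM in shFAM111B libraries.

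SNHG25 had the largest change of the hosts. The gene lies on chromosome 17 (chr17:64145970-64146476, + strand, GRCh38, GENCODE v29) and encodes SNORD104 in its intron, while SNORA50C lies inside its second exon. SNHG25 was listed at 0, 1.54 and 0 TPM in the control libraries and at 442, 248 and 189.9 TPM in the shFAM111B libraries. It thus went from near the bottom of the class to rank 3, 6 and 8 of the 32 hosts in the shFAM111B libraries. The fitted log2 fold change was 7.66 (SE 0.44, adjusted p = 8.86e-06, limma) with a pseudocount of 1 and 10.08 with a pseudocount of 0.1. With most control values at 0, neither is a bound on the change. SNHG25 passed the filter only through its shFAM111B values. The test used the same values, so its adjusted p is not independent support for the change.

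The longer spliced SNHG25 transcript is given whole because 133 of its 278 bases, positions 141 to 273 (47.8%), are the snoRNA SNORA50C, in capitals, so that reads from a snoRNA precursor and from the host RNA fall on the same bases:
SNHG25: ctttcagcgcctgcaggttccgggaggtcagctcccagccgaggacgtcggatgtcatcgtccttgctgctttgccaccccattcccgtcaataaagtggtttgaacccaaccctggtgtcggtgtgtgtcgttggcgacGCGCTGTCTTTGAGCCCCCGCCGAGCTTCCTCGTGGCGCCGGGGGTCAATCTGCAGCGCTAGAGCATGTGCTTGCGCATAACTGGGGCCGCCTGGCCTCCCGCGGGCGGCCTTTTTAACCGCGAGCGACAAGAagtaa
The second annotated transcript, of 106 bases, ends before SNORA50C. SNORA50C was listed at 0 TPM in all libraries except shFAM111B library 2 (7.79 TPM), and SNORD104 at 0 in all 6. The summed TPM of all genes of the snoRNA class, most of them outside these hosts, was 225, 326 and 143 in control. In shFAM111B libraries it was 1081, 874 and 391, the order of SNHG25, and the scaRNA class (61.1, 8.4 and 0.7) had this order too. The rRNA (35926, 53091 and 2567 TPM), snRNA (5214, 8093 and 820) and misc_RNA (4339, 6622 and 1228) classes did not, being highest in shFAM111B library 2. The part of any of these classes in the SNHG25 value was not tested.

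SNHG19 and ZFAS1 were the other hosts to pass the 2-fold rule upwards. SNHG19, the host of SNORD60, was at 15, 29.6 and 30.7 TPM in control and at 68.9, 78.2 and 88 TPM in shFAM111B libraries. Control library 1 was low against the other control libraries, and the groups did not overlap. The log2 fold change was 1.66 (SE 0.26, adjusted p = 0.000933, limma).

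ZFAS1 carries snoRNAs of the SNORD12 family and lies antisense to the start of ZNFX1. It was at 132, 135 and 119.7 TPM in control and at 270.2, 239 and 276 TPM in shFAM111B libraries. The control libraries sat close together, and the log2 fold change was 1.02 (SE 0.07, adjusted p = 2.06e-05, limma), just past the 2-fold rule. It was short of 2-fold without control library 3 (0.97), shFAM111B library 1 (0.99) or shFAM111B library 3 (0.98), without mitochondrial and short non-coding genes (0.89) and with quantile normalisation (0.90), while its adjusted p stayed under 0.05 in each. ZNFX1, an interferon-linked helicase that shares 249 exonic bases with ZFAS1 on the opposite strand, fell from 8.62 ± 0.44 to 2.86 ± 0.25 TPM (SD, n = 3; -1.32 on the log2 scale, adjusted p = 3.02e-05, limma). An annotated conserved segment inside ZFAS1 (listed as AL049766.1, sharing 93 exonic bases with it) was listed at 0 in all control libraries and at 46.8, 242 and 77.2 TPM in shFAM111B libraries. How the counting shared reads between ZFAS1 and this segment is not given in the sources used here.

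In the deposited TPM SNHG5, SNHG7, SNHG8 and SNHG9 had nearly the same change, as did DANCR. Under quantile normalisation the changes of these hosts spread more widely, from 0.61 (DANCR) and 0.70 (SNHG5) to 1.14 (SNHG9). SNHG8, the host of SNORA24, was at 183, 170.5 and 122 TPM in control and at 273, 275 and 342 TPM in shFAM111B libraries. It had the widest control spread of the abundant hosts, with control library 3 low, and a log2 fold change of 0.91 (SE 0.16, adjusted p = 0.00182, limma). SNHG7, which hosts the SNORA17 pair, was at 83.1, 75 and 80.9 TPM in control and at 149.6, 138 and 148 TPM in shFAM111B libraries.

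The libraries of SNHG7 were tight in both groups, and its log2 fold change was 0.86 (SE 0.06, adjusted p = 1.66e-05, limma). SNHG5, the host of SNORD50B, was at 144, 147 and 133 TPM in control and at 239.7, 244 and 279.5 TPM in shFAM111B libraries, a log2 fold change of 0.84 (SE 0.07, adjusted p = 4.54e-05, limma). SNHG9, the host of SNORA78, was at 35.4, 36.4 and 29.5 TPM in control and at 68.7, 61.4 and 53.6 TPM in shFAM111B libraries, a log2 fold change of 0.84 (SE 0.11, adjusted p = 0.000469, limma). In none of these did a control library reach any shFAM111B library.

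SNHG21, the host of SCARNA15, was the scarcest host to rise. Its mean was 5.56 ± 1.05 TPM in control and 9.12 ± 1.7 TPM in shFAM111B libraries (SD, n = 3). Its log2 fold change was 0.62 (SE 0.17, adjusted p = 0.0118, limma). It shares 768 of its 1053 exonic bases with another annotated gene on the same strand (AC105339.2, at 0.52 and 0.18 TPM), so its level is uncertain.

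SNHG1 was the abundant host that fell. The gene carries snoRNAs of the SNORD22 to SNORD30 series and is a classical example of a gene whose functional products come from its introns. SNHG1 was at 151, 150.1 and 160.1 TPM in control and at 112, 119 and 107 TPM in shFAM111B libraries, without overlap. Its log2 fold change was -0.45 (SE 0.05, adjusted p = 0.000257, limma) in the deposited TPM, close to the median of all tested genes. With median-of-ratios scaling it was 0.0039, with library medians subtracted 0.09, with upper quartiles matched -0.04 and with quantile normalisation -0.49. Its share of the summed TPM of the hosts went from 6.06% to 2.92%, and its rank from 5 to 7 in control libraries to 11 in every shFAM111B library.

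SNHG17, the host of the SNORA71 group, was at 51.5, 57.9 and 61.5 TPM in control and at 33.8, 32.1 and 32.6 TPM in shFAM111B libraries. The shFAM111B libraries hardly differed from each other, and the log2 fold change was -0.77 (SE 0.08, adjusted p = 8.38e-05, limma). It was below 0 under all 4 other scalings as well, at -0.24 to -0.47.

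The 3 hosts that fell at least 2-fold did not exceed 13.6 TPM in any library. SNHG22, the host of SCARNA17, was at 7.02, 7.3 and 8.48 TPM in control and at 1.76, 2.1 and 1.81 TPM in shFAM111B libraries, a log2 fold change of -1.57 (SE 0.12, adjusted p = 2.59e-05, limma). It was the host with the largest fall, and alone stayed lower by the 2-fold rule after median-of-ratios scaling, at -1.22. SNHG3, the host of SNORA73A and SNORA73B, was at 12.7, 13.6 and 12 TPM in control and at 4.41, 6.2 and 4.41 TPM in shFAM111B libraries, a log2 fold change of -1.21 (SE 0.14, adjusted p = 0.000177, limma).

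SNHG3 and the protein-coding RCC1 overlap on the same strand over 242 exonic bases. RCC1, the nucleotide exchange factor of Ran, was at 72.4 ± 3.71 and 80.2 ± 3.7 TPM (SD, n = 3) with a log2 fold change of 0.15 that did not pass (adjusted p = 0.0633, limma). SNHG4, the host of SNORA74A, was at 6.63, 6.39 and 5.42 TPM in control and at 2.4, 2.28 and 2.22 TPM in shFAM111B libraries, a log2 fold change of -1.11 (SE 0.12, adjusted p = 0.000114, limma). SNHG4 shares 626 exonic bases on the same strand with MATR3, a nuclear matrix RNA-binding protein, which fell from 77.8 ± 3.18 to 27.6 ± 1.23 TPM (SD, n = 3). With reads that could belong to either gene, the SNHG4 level is uncertain.

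The other 10 tested hosts did not pass the adjusted threshold. SNHG32, listed as a protein-coding gene in GENCODE v29, was at 157.5, 142 and 149.9 TPM in control and at 162, 166 and 156 TPM in shFAM111B libraries (log2 fold change 0.10, adjusted p = 0.117, limma). SNHG15 was at 62.8, 65.7 and 74.4 TPM in control and at 68.1, 66.8 and 77 TPM in shFAM111B libraries (0.06, adjusted p = 0.53, limma). SNHG16, a host of the SNORD1 group, was at 55.8, 57.3 and 55.7 TPM in control and at 55.1, 53.5 and 60.7 TPM in shFAM111B libraries (0.0025, adjusted p = 0.975, limma).

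In these 3 abundant hosts the groups overlapped. SNHG12 was at 22.9, 22.8 and 25.6 TPM in control and at 28.4, 24.6 and 28.3 TPM in shFAM111B libraries (log2 fold change 0.18, adjusted p = 0.0913, limma). EPB41L4A-AS1 was at 20.3, 12.7 and 12.1 TPM in control, where library 1 was high, and at 16.5, 17 and 17.3 TPM in shFAM111B libraries (0.20, adjusted p = 0.359, limma). Without control library 1 its change was 0.42 and passed (adjusted p = 0.0047, limma). SNHG30, the host of SNORD7, was at 12.8, 12.2 and 10 TPM in control and at 14.4, 12.9 and 16.2 TPM in shFAM111B libraries (0.29, adjusted p = 0.067, limma), without overlap. Without shFAM111B library 2, SNHG12 and SNHG30 passed at 0.25 and 0.37 (adjusted p = 0.0321 and 0.0431, limma).

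SNHG10 and SNHG11 were near 10 TPM with wide spreads. SNHG10, the host of SCARNA13, was at 8.22, 7.6 and 8.71 TPM in control and at 8.11, 18 and 14.2 TPM in shFAM111B libraries (log2 fold change 0.59, adjusted p = 0.0714, limma). In SNHG10 the first shFAM111B library lay within the control range, and without it the change was 0.89 (adjusted p = 0.00147, limma). SNHG11 was at 8.52, 13.3 and 10.1 TPM in control and at 13.1, 13.3 and 14.2 TPM in shFAM111B libraries (0.34, adjusted p = 0.0793, limma), and without control library 2, the highest control, its change was 0.50 (adjusted p = 0.00841, limma). SNHG20 and SNHG26, with means of 4.84 and 4.41 TPM, had log2 fold changes of -0.06 and -0.08 and adjusted p of 0.733 and 0.808 (limma).

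The 5 hosts that were not tested did not exceed 2.63 TPM in any library. SNHG18 was listed at 0 in all 6. SNHG14, the long host of the Prader-Willi region, was at 0.71, 0.78 and 0.44 TPM in control and at 0.1, 0.09 and 0.08 TPM in shFAM111B libraries. SNHG31 was at 2.63, 0.68 and 0.3 TPM in control and at 0.17, 0.81 and 0.05 TPM in shFAM111B libraries, and SNHG27 and SNHG28 were at 0.63 TPM or less.

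Summed over all 32 hosts, the level was 2541 ± 64.7 TPM in control and 3860 ± 192 TPM in shFAM111B libraries (SD, n = 3), which is 0.255% and 0.392% of all listed TPM. Within these sums SNHG25 alone had means of 0.51 and 293 TPM. TPM are shares of a fixed total, of which mitochondrially encoded RNAs took means of 199635 and 76315 TPM. The part of either in the higher sum was not tested. The 6 library sums did not overlap between groups, at 2471 to 2599 and 3643 to 4008 TPM. A single value in 3 against 3 libraries cannot reach an exact two-sided permutation p under 0.1, so no test is given for this sum.

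Hosts were also grouped by their control mean. The shFAM111B libraries do not enter that mean, but they do enter the filter that decides which genes are tested. Of the 9 hosts with a control mean of 100 TPM or more, 7 rose (77.8%), 1 fell (11.1%) and 1 did not pass, against 40.5% and 45.2% of all 1300 tested genes at that level. Their median log2 fold change was 0.73, against -0.03 for those genes. Of the 11 hosts with a control mean from 10 to under 100 TPM, 3 rose (27.3%) and 2 fell (18.2%), against 17.7% and 62.5% of 6597 genes. Of the 7 scarcer hosts, 2 rose and 2 fell (28.6% each), against 20.8% and 40.2% of 6497 genes. The 2 that rose were SNHG21 and SNHG25, and SNHG25 passed the filter only through its shFAM111B values. The difference between hosts and other genes at these levels was not tested.

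Within the hosts the change was lower for longer transcripts. Length ran from 278 to 3607 nt for the longest annotated transcript. All 7 hosts of up to 1000 nt had a log2 fold change above 0, with a median of 0.89, against a median of 0.43 for all 1484 tested genes of that length and of 0.37 for the other 777 long non-coding RNA genes among them. The 10 hosts between 1000 and 2000 nt had a median of 0.21, against 0.17 for 2237 genes and 0.24 for the other 314 long non-coding ones. The 10 hosts between 2000 and 4000 nt had a median of -0.03, above the -0.31 of 5166 genes but below the 0.11 of the other 385 long non-coding ones. The rank correlation between length and change was -0.68 across the 27 hosts (-0.64 across 26 without SNHG25), again a description across genes. That between mean TPM, which includes the shFAM111B libraries, and change was 0.54 (0.53 without SNHG25).

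SNHG7, at 2357 nt, rose despite its length, and SNHG22, at 1615 nt, fell despite being shorter. After the trend of the change with length and expression over all genes was removed, the median of the hosts was 0.08 and that of all genes -0.02. SNHG25 was at 5.83, SNHG7 at 0.97 and ZFAS1 at 0.52 on the log2 scale, while SNHG19 was at -0.0035, SNHG8 at -0.0077 and SNHG9 at -0.42. Across the hosts the rank correlation between length and these residuals was 0.16 (0.30 without SNHG25), no longer below 0. These residuals have no test.

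The snoRNAs inside the hosts were mostly not seen. GENCODE v29 places 60 snoRNA and scaRNA genes within 29 hosts other than SNHG14, and 41 of them were listed at 0 TPM in every library. Libraries were prepared from polyadenylated RNA, and mature snoRNAs carry no poly(A) tail. Of the 60, 34 lie inside an annotated exon of a host transcript, so their reads cannot be told apart from those of the host. The number above 0 was 4, 5 and 3 in control and 12, 10 and 4 in shFAM111B libraries, and their sum was 88.2, 101 and 38.4 TPM in control and 227, 138 and 81.1 TPM in shFAM111B libraries, with overlapping ranges.

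In SNHG3, the host that fell, SNORA73A was at 5.43, 18.6 and 15.3 TPM in control and at 47.1, 36 and 0 TPM in shFAM111B libraries, and SNORA73B was at 13, 6.13 and 0 against 30.5, 24.9 and 4.95 TPM. Both were higher in shFAM111B libraries 1 and 2 than in any control library, and neither was in library 3. In SNHG17, SNORA71B was at 12.4, 13.4 and 10.3 TPM in control and listed at 0 in all shFAM111B libraries. SNORA71D, in the same host, was listed at 0 in all control libraries and at 14.7, 8.74 and 0 TPM in shFAM111B libraries. SNORA26, in DANCR, was listed at 0 in control and at 20.7, 11.7 and 0 TPM in shFAM111B libraries. The shFAM111B libraries differed in the same way in other classes of RNA. The rRNA class was at 35926, 53091 and 2567 TPM in them, against 1056 to 2850 TPM in control. The snRNA class was at 5214, 8093 and 820 TPM, against 110 to 918 TPM in control. The part of this difference between libraries in the snoRNA values was not tested.

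Of the 27 tested hosts, 17 share exonic bases with another listed gene, 14 of them with one on the opposite strand and 6 with one on the same strand. The labels name a stranded library kit, and whether the counting used the strand is not given in the sources used here. SEC14L1, which shares 460 exonic bases with SNHG20 on the same strand, fell from 28 ± 1.7 to 13.2 ± 0.93 TPM (SD, n = 3; log2 fold change -1.03, adjusted p = 3.16e-05, limma). DIPK1B, which shares 1094 bases with SNHG7 on the opposite strand, went from 28.3 ± 0.61 to 22.8 ± 1.09 TPM (-0.30, adjusted p = 0.00406, limma), against the rise of SNHG7. MYO5B, with 229 bases on the strand opposite to SNHG22, fell with it, from 6.69 ± 1.31 to 3.68 ± 1.05 TPM (-0.73, adjusted p = 0.0156, limma).

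Genes that share the hosts' biology were examined as lists. The protein-coding snoRNA hosts, 31 tested, had 6 that rose (19.4%) and 19 that fell (61.3%) at adjusted p, against 21.1% and 50.9% of all tested genes, and a median log2 fold change of -0.31 that turned to 0.14 with median-of-ratios scaling and was -0.41 with quantile normalisation. WDR43, a ribosome biogenesis factor, fell from 43.7 ± 1.74 to 8.13 ± 0.64 TPM (SD, n = 3; log2 fold change -2.29, adjusted p = 2.55e-06, limma). IPO7, a nuclear import receptor, had -2.03, and EIF4G2, a translation initiation factor, -1.67. TAF1D, a subunit of the RNA polymerase I factor SL1, fell slightly from 56.5 ± 2.09 to 50.6 ± 1.04 TPM (-0.16, adjusted p = 0.0293, limma) in the deposited TPM and had 0.29 after median-of-ratios scaling. PPAN, also a ribosome biogenesis factor, rose by 0.71 on the log2 scale.

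The 9 core proteins of snoRNPs divided. NOP10, of the H/ACA particle, rose from 218 ± 18.9 to 401 ± 45.4 TPM (SD, n = 3; log2 fold change 0.87, adjusted p = 0.000161, limma). FBL, the methyltransferase of the C/D particle, rose from 246 ± 5.2 to 383 ± 28.1 TPM (0.63, adjusted p = 7.15e-05, limma), as did SNU13 (0.37) and NHP2 (0.26). DKC1, the pseudouridine synthase and itself a snoRNA host, fell from 77.7 ± 1.27 to 30.7 ± 3.83 TPM (-1.32, adjusted p = 1.9e-05, limma), and NOP58 fell by 1.16 on the log2 scale. GAR1 was at -0.17 in the deposited TPM and at 0.28 after median-of-ratios scaling. In all, 4 of the 9 rose (44.4%), 3 fell (33.3%) and 2 (NOP56 and RRP9) passed in neither direction, against 21.1% and 50.9% of all tested genes that rose and fell, with a median of 0.13.

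Of the 13 snoRNP assembly factors and nucleolar chaperones, 1 rose (7.69%) and 9 fell (69.2%) at adjusted p, against 21.1% and 50.9% of all tested genes, with a median of -0.47, which was -0.09 after median-of-ratios scaling and 0.06 with library medians subtracted. ZNHIT6, an assembly factor of C/D snoRNPs, fell from 7.13 ± 0.36 to 1.92 ± 0.29 TPM (SD, n = 3; log2 fold change -1.48, adjusted p = 3.49e-05, limma). NOLC1, the nucleolar chaperone, fell by 1.43, and DBR1, the lariat debranching enzyme that releases intronic snoRNAs, fell by 1.35 on the log2 scale. PIH1D1, of the R2TP complex, rose by 0.72 on the log2 scale.

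Among 17 NMD factors, 5 rose (29.4%) and 11 fell (64.7%) at adjusted p, against 21.1% and 50.9% of all tested genes, with a median of -0.46, which was -0.04 after median-of-ratios scaling and 0.08 with library medians subtracted. UPF1, the central helicase of the pathway, fell from 72.3 ± 5.01 to 52.5 ± 0.85 TPM (SD, n = 3; log2 fold change -0.45, adjusted p = 0.000461, limma) and had -0.0064 after median-of-ratios scaling. SMG1, the kinase that phosphorylates UPF1, fell from 13 ± 1 to 2.94 ± 0.2 TPM (-1.83, adjusted p = 7.87e-06, limma), and SMG8 fell by 1.54 on the log2 scale. RBM8A, of the exon junction complex, rose by 0.70 on the log2 scale.

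Of 8 stress mRNAs known as NMD substrates, 1 rose (12.5%) and 7 fell (87.5%) at adjusted p, against 21.1% and 50.9% of all tested genes. DDIT3 rose from 19 ± 0.71 to 75.1 ± 7.24 TPM (SD, n = 3; log2 fold change 1.93, adjusted p = 3.56e-06, limma). ATF3, GADD45A and ASNS fell by 1.81, 1.45 and 1.25 on the log2 scale. The median of the 8 was -0.79, and it was below 0 under all 4 other scalings.

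Of 20 TOP-type genes for translation factors and related proteins, 6 rose (30%) and 10 fell (50%) at adjusted p, against 21.1% and 50.9% of all tested genes, with a median of -0.12, against 0.33 with median-of-ratios scaling and -0.36 with quantile normalisation. EIF4B, PABPC1 and EIF3E fell by 1.53, 1.14 and 1.01 on the log2 scale.

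**Figure D3:**
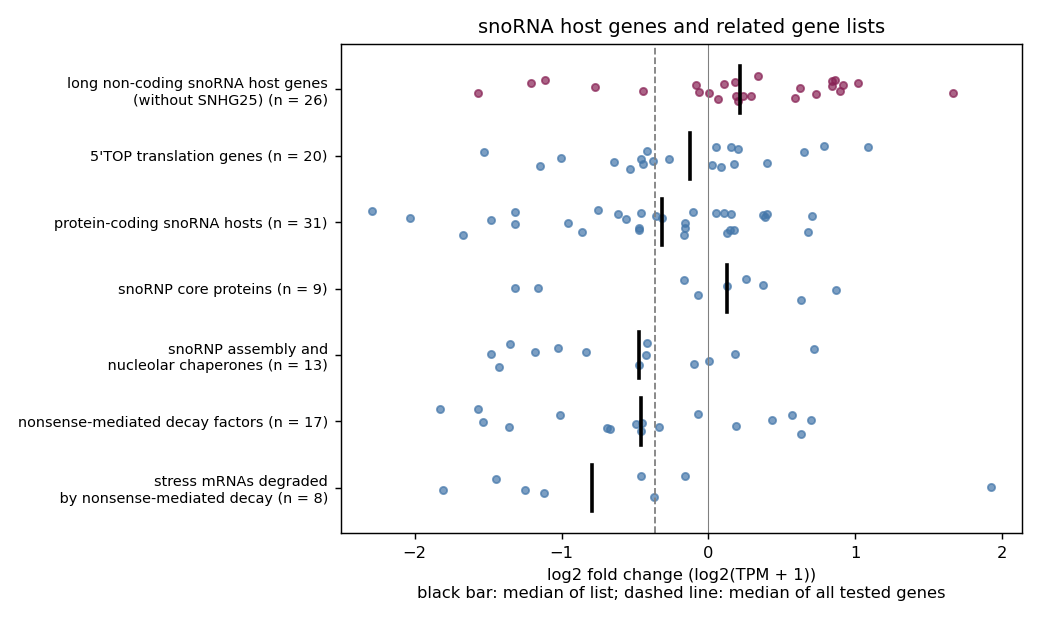
Log2 fold changes (shFAM111B against control, deposited TPM, log2(TPM + 1)) of 26 long non-coding snoRNA host genes, without SNHG25, and of 6 related gene lists. Each point is a gene, black bars are medians, and the dashed line is the median of all tested genes at -0.36; the hosts have a median of 0.22 and the stress mRNAs -0.79.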

How the data were processed

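RNA sequencing libraries of Huh7 cells were analysed, 3 control and 3 shFAM111B. The authors deposited TPM per gene and library. The deposited table also holds their own group comparison, with a ratio of group means (fold change), the log2 of that ratio, p-values and adjusted p-values, none of which was used. The submitters' processing notes name RSEM, DESeq2 and hg38; the aligner, the annotation release and the strand setting are not given in the sources used here. The labels name a stranded poly(A) mRNA kit and the study's methods a TruSeq kit. TPM are relative, hold no read depth and permit no count test.

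The filter asked for 1 TPM or more in 3 libraries or more, and log2(TPM + 1) was tested with limma 3.58.1 (mean-variance trend, R 4.3.3) with Benjamini-Hochberg adjustment over all 14394 genes. A pseudocount of 1 understates changes of scarce genes. The 2-fold rule takes a fold change of at least 2 on this scale and an unadjusted limma p under 0.05. Tables and figures were made with Python 3.11.15, pandas 2.3.3 and matplotlib 3.10.9. Transcript lengths, overlaps and snoRNA positions came from GENCODE v29, which matched 58420 of the listed genes (96.3%) and all 32 hosts, and 30-base start windows from RefSeq (4 tested hosts had no entry). The fitting was tested on simulated data.

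Every tested host is named, with each library's TPM for those with a mean of at least 10 TPM; in each related list the largest rises and falls, up to 3 a direction, are named, plus FBL, UPF1 and TAF1D, except genes that are not reported here. Other genes named are those that overlap a host, and these, with the library values given for scarcer hosts and the hosted snoRNAs, were chosen after their values were seen. The hosts and lists were chosen with earlier results of these data known. Alternatives covered filters, pseudocount, scaling, the genes behind the TPM total, length trend, replicate block and each library left out; shFAM111B library 3 alone and the classes by control mean were added after seeing the data.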

Additional observations from a re-analysis of the deposited data

How the results depend on the processing

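With the replicate number as a block the counts were 3 higher and 3 lower by the 2-fold rule and 12 higher and 5 lower at adjusted p, as without it, and no host changed its call. The numbers share only a name: same-numbered libraries deviated together with r of 0.05, 0.03 and 0.09. By the 2-fold rule, hosts higher numbered 11 after median-of-ratios scaling, 9 after upper-quartile scaling, 5 after quantile normalisation, 11 with library medians subtracted and 5 with shFAM111B library 3 alone, and hosts lower numbered 1 under each of the 4 scalings. At adjusted p, 20, 20 and 21 were higher after median-of-ratios, upper-quartile and median-subtracted scaling. The median host log2 fold change was 0.69, 0.65, 0.61 and 0.77 under the 4 scalings, 0.11 without mitochondrial and short non-coding genes, 0.30 with shFAM111B library 3 alone and 0.0759 after the length trend was removed. The corresponding median of all tested genes was 0.03, -0.01, -0.03 and 0.17 under the scalings. Apart from that shift, the cause of these differences was not tested.

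The sign changed under median-of-ratios, upper-quartile, quantile and median-subtracted scaling for SNHG20 (0.31, 0.28, 0.41 and 0.47, and 0.25 with shFAM111B library 3 alone) and SNHG26 (0.28, 0.25, 0.35 and 0.45), for SNHG1 under the first and last (0.0039 and 0.0851), and under quantile normalisation for GAS5 (-0.0029) and SNHG29 (-0.18). Without mitochondrial and short non-coding genes SNHG32 was at -0.0253, SNHG16 at -0.13 and SNHG15 at -0.0665. With the trend removed, which has no test, SNHG9 was at -0.42, SNHG8 at -0.0077, SNHG6 at -0.17 and SNHG19 at -0.0035. Leaving out 1 library changed the sign of SNHG16 (range -0.0497 to 0.0389), SNHG26 (-0.34 to 0.12), SNHG20 (-0.22 to 0.0351) and SNHG15 (-0.0002 to 0.13). With 1 library left out, 2 to 4 hosts were higher and 3 lower by the 2-fold rule, 11 to 14 higher and 5 lower at adjusted p, the median was 0.21 to 0.25, and FAM111B ran from -2.25 to -2.15. SNHG25 has no value with at least 1 TPM required in every library.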
